A study of Mus musculus with 9 samples.

Results

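Ventricular expression of 10 genes for inward rectifier potassium channels and their partner subunits was compared between control and Arid1a-deleted neonatal mice. The genes were Kcnj2, Kcnj12, Kcnj14 and Kcnj4 (the Kir2 channels), Kcnj3 and Kcnj5 (Kir3), Kcnj8 and Kcnj11 (Kir6), and Abcc8 and Abcc9, which encode the sulfonylurea receptors SUR1 and SUR2. They were picked by name as the subunits of the inward rectifier currents of the heart, and they are 10 of the 38293 genes in the count table. The libraries were made from poly(A)-selected RNA of ventricles at postnatal day 7 (P7). The 5 control mice were Arid1a f/f littermates, which carry both floxed alleles and no Cre. The 4 cKO mice were αMHC-Cre;Arid1a f/f, in which Cre is driven by the cardiomyocyte promoter αMHC. All the mice were on a background that the methods spell C57B/6 J, and pups of both sexes were used. Since the controls lacked Cre, the presence of Cre and the deletion of Arid1a cannot be told apart.

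Inward rectifier channels pass potassium into the cell more easily than out of it, because polyamines and magnesium plug the pore from inside at positive voltages. Kir2 channels, which are tetramers, carry IK1, the current that holds the resting potential of ventricular cardiomyocytes near the potassium equilibrium and completes repolarisation. Kir3 channels are opened by G protein βγ subunits and carry IKACh, by which the vagus slows the sinus node and shortens the atrial action potential. Kir6 channels assemble with sulfonylurea receptors into ATP-sensitive channels (KATP) that open when cellular energy falls. IK1 increases as cardiomyocytes mature after birth.

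The pore-forming members can be told apart at the potassium selectivity filter. The 24 coding bases around it are shown from the longest open reading frame of the GENCODE M21 transcripts (GRCm38), 5′ to 3′, with the codon between the 2 glycine codons of the filter in capitals, because it separates the KATP pores from the other channels:
Kcnj2: acaaccattggcTATggtttcagg
Kcnj12: accaccattggcTACgggctacgc
Kcnj14: acgtccataggcTATggtgtgcgc
Kcnj4: acgaccattggcTACgggttccgg
Kcnj3: gccaccatcggcTATggctaccgc
Kcnj5: acaaccattgggTATggcttcaga
Kcnj8: gtgaccattgggTTTggagggaga
Kcnj11: gtgaccattggtTTCggcgggcgc
The Kir2 and Kir3 genes carry a tyrosine codon there, and Kcnj8 and Kcnj11 carry a phenylalanine codon. Abcc8 and Abcc9 form no pore and have no such stretch. No pair of pore-forming genes or receptors shared an identical run of 75 bases, the read length, so 0 pairs of members could exchange a perfectly matching read.

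Library totals ranged from 31011055 to 40073801 counts, and levels are given as CPM, read counts scaled by TMM to a common library total. Arid1a itself, counted over the whole gene (chromosome 4, 133679008 to 133756769), was at 128 to 148 CPM in controls and 100 to 113 CPM in cKO. In edgeR its log2 fold change of -0.39 (SE 0.06; adjusted p = 0.0013) did not reach 1.5-fold. The libraries fell into 2 sets that the labels do not name, seen from Rps3a3, a ribosomal protein gene copy. Controls 1 and 2 and cKO 1, 2 and 3 held 0.345 to 0.521 CPM of it (Rps3a3-low), while controls 3, 4 and 5 and cKO 4 held 99.7 to 112 CPM (Rps3a3-high). Results are therefore also given within the sets. With 1 cKO library, the Rps3a3-high set gives values without a test.

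Of the 10 members, 4 were called lower in cKO (Kcnj2, Kcnj12, Kcnj14 and Kcnj3) and 0 were called higher. A call needed an adjusted p under 0.05 over all tested genes and a change of more than 1.5-fold in edgeR's quasi-likelihood test. Among the 15318 genes tested, 2.72% were called lower and 4.01% higher, 6.72% together. All 10 members passed the filter on low counts, Kcnj14 through its control libraries alone. The median log2 fold change of the members was -0.28, beside 0.01 over all tested genes. Groups did not overlap for the 4 called genes and for Kcnj5, each lower in every cKO library than in any control, as for 8.58% of tested genes (8.16% were higher without overlap). Since RNA came from ventricular tissue and not sorted cells, fewer cells of a type and less RNA per cell cannot be told apart. The members were chosen with results of these data known, so their count is a description.

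**Figure D1:**
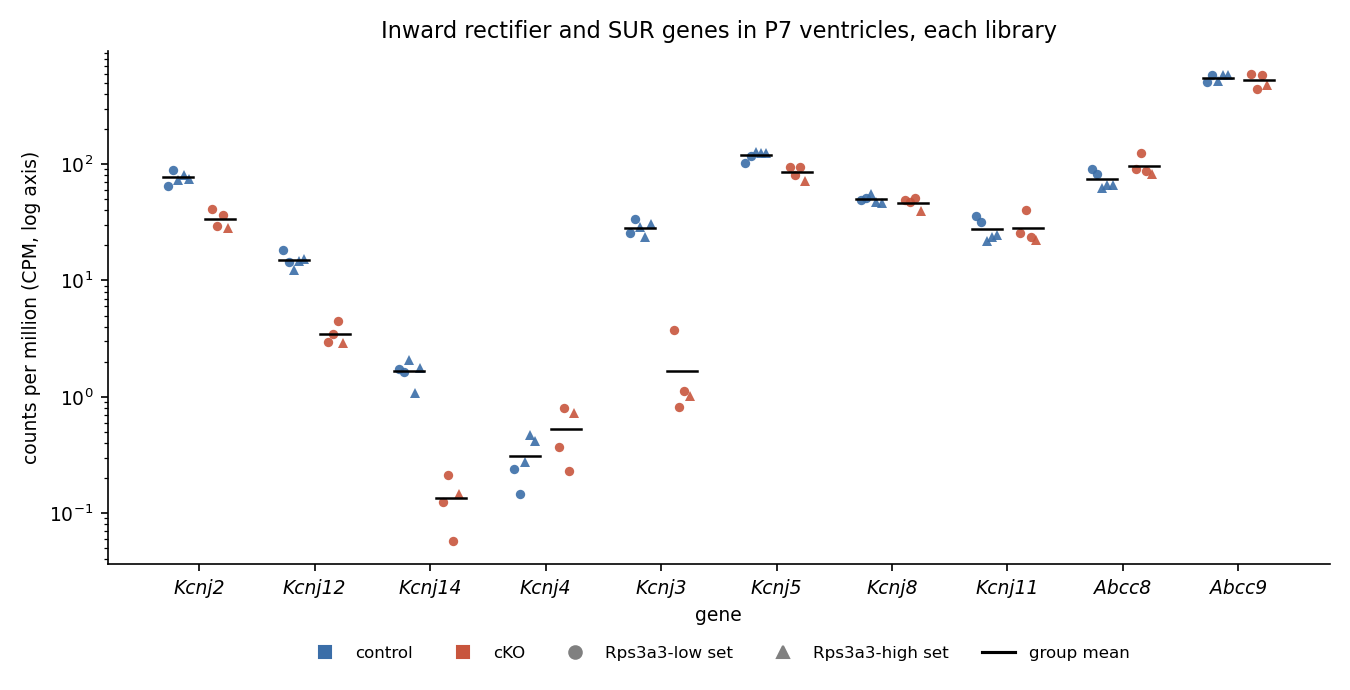
Level of each of the 10 genes in every library, in CPM on a log axis; blue marks are the 5 controls, red marks the 4 cKO, circles the Rps3a3-low and triangles the Rps3a3-high set, and bars the group means. Kcnj2, Kcnj12, Kcnj14, Kcnj3 and Kcnj5 show no overlap between the groups, whereas the other 5 genes overlap.

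Of the 4 Kir2 genes, 3 were called lower. Kcnj2 encodes Kir2.1, the main IK1 subunit of mouse ventricle (chromosome 11, 111066164 to 111076821, plus strand). It was measured at 64.9, 89.99, 73.8, 81.4 and 74.1 CPM in controls 1 to 5 and at 41.5, 29.3, 36.6 and 28.2 CPM in cKO 1 to 4. Every cKO library lay below the lowest control, and these values rest on 1107 or more counts per library. In edgeR this is a log2 fold change of -1.18 with an SE of 0.13 and an adjusted p of 7.6e-05, a level 2.27-fold lower. The Rps3a3-low libraries alone gave -1.11 and the Rps3a3-high ones -1.44.

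Kcnj12 encodes Kir2.2, which joins Kir2.1 in IK1 channels (chromosome 11, 61022564 to 61071131, plus strand). Its levels were 18.4, 14.4, 12.2, 14.7 and 15.3 CPM in controls and 2.99, 3.50, 4.46 and 2.93 CPM in cKO. The groups were separated by a gap wider than the range of the cKO libraries. The log2 level of Kcnj12 fell by 2.11 with an SE of 0.16 (adjusted p = 4.3e-06, edgeR), or 4.32-fold, and 59 of the 15318 tested genes (0.385%) had a change this low or lower. The log2 fold change was -2.16 in the Rps3a3-low libraries and -2.26 in the Rps3a3-high ones.

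Kcnj14 encodes Kir2.4, a Kir2 subunit known mainly from neurons (chromosome 7, 45816460 to 45824782, minus strand). It was a minor transcript, at 1.75, 1.62, 2.08, 1.07 and 1.78 CPM in controls, and it dropped to 0.124, 0.212, 0.0579 and 0.145 CPM in cKO. These levels stand for 34 to 75 counts per control library and 2 to 8 per cKO library, so the size of the change is less certain than its direction. Kcnj14 had a log2 fold change of -3.57 with an SE of 0.34 (adjusted p = 3.0e-05, edgeR), and 13 tested genes (0.0849%) were this low or lower. It passed the filter on low counts through its control libraries alone, so its adjusted p, call and rank are a description. Of the 75-base runs of the Kcnj14 exons, 24.6% also occur in Gm5522, a processed pseudogene (chromosome 1, 10805281 to 10806522) that was not analysed here, so reads from this stretch could not be placed with certainty.

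Kcnj4, which encodes Kir2.3 (chromosome 15, 79483714 to 79505241, minus strand), was the Kir2 gene that was not lower. It was measured at 0.241, 0.145, 0.277, 0.472 and 0.420 CPM in controls and at 0.373, 0.795, 0.232 and 0.726 CPM in cKO. With 5 to 30 counts per library the groups overlapped. The log2 fold change of 0.79 (SE 0.43) did not pass the test (adjusted p = 0.245, edgeR), and with so few counts its size is uncertain. What difference could be detected was not tested.

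Per kilobase of exon, the summed Kir2 level was 20.3 ± 1.40 CPM (SD, n = 5) in controls and 7.79 ± 1.09 CPM (SD, n = 4) in cKO, a ratio of 0.383. Kcnj2 made up 69.3% of the family sum in controls and 79.7% in cKO, while Kcnj12 went from 26.9% to 16.3%. Kcnj14 held 3.04% and then 0.667%, and Kcnj4 0.717% and then 3.37%. To ask whether the 2 main IK1 genes changed unequally, the log2 ratio of Kcnj12 to Kcnj2, with 0.5 CPM added to each, was compared over libraries. It was -1.79, -2.60, -2.54, -2.43 and -2.24 in controls and -3.59, -2.90, -2.90 and -3.07 in cKO, without overlap. The difference of -0.79 passed a two-sided exact permutation test (p = 0.00794, the smallest this design allows; adjusted p over 6 ratios = 0.0238). The Rps3a3-low libraries gave -0.93 and the Rps3a3-high ones -0.66. Without cKO 1 the difference was -0.63 and missed the threshold (adjusted p = 0.0714), a loss that the design did not fix, since leaving out any other cKO library gave 0.0357. With 1 control left out, leaving 4 against 4, the difference was -0.86 to -0.66, and its adjusted p of 0.0571 is the lowest that 3 ratios sharing one p can reach there, so the threshold could not be passed. With labels permuted only within the sets, its adjusted p was 0.05, from the smallest p this allows (0.025).

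**Figure D2:**
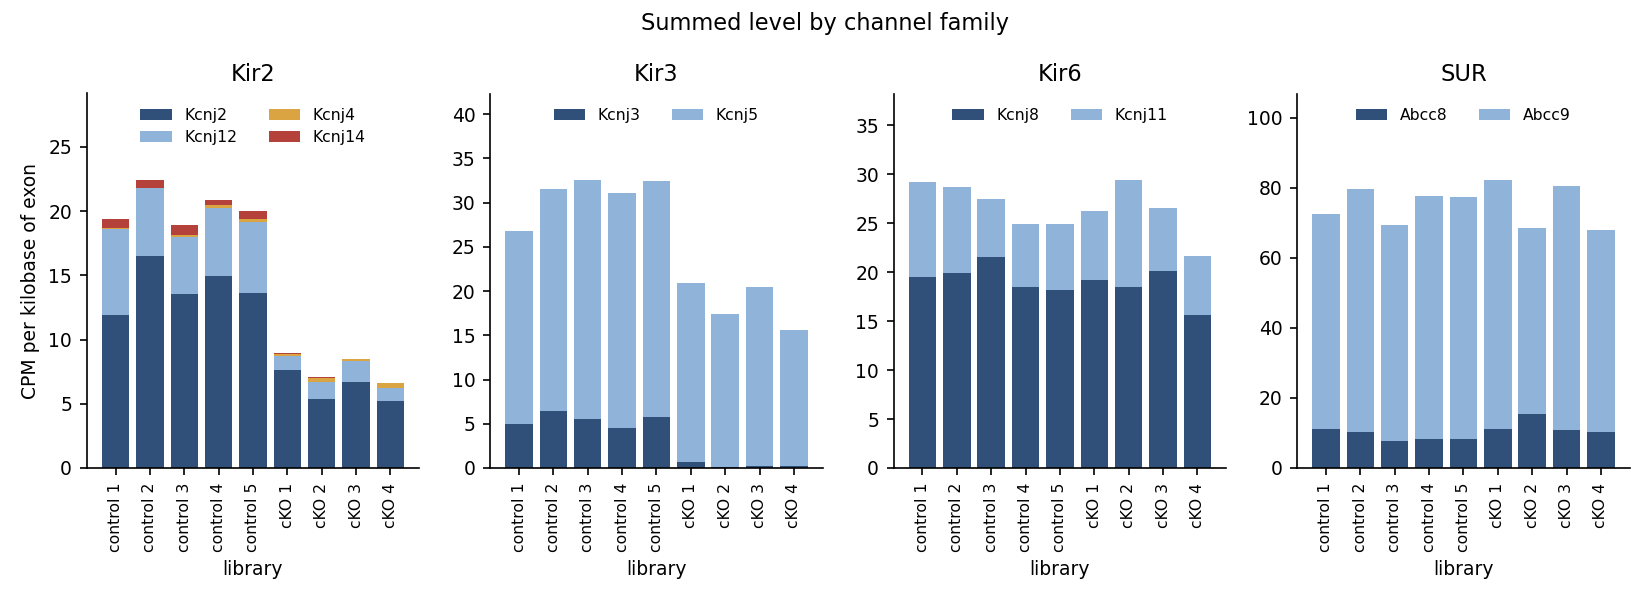
Stacked bars of the level of each gene per library, in CPM per kilobase of exon, summed within the Kir2, Kir3, Kir6 and SUR families; each panel has its own vertical axis, which starts at 0. The Kir2 bars of the 4 cKO libraries (6.64 to 8.93) are all below those of the controls (18.9 to 22.4), and the Kcnj3 part of the Kir3 bars shrinks, while the Kir6 and SUR bars overlap between groups.

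Cardiomyocyte markers were listed beside this because IK1 is a current of those cells. Over all tested genes the share called was 6.72%, to be read beside this and the later marker lists. Of 8 cardiomyocyte markers 0 were called, and their sum was 43759 to 52393 CPM in controls and 39546 to 45987 CPM in cKO. Myh6, the most abundant of them, gave -0.12 on the log2 scale with an SE of 0.11 (adjusted p = 0.478, edgeR). Of the 8, 7 had a negative log2 fold change, and Myl2 was lower without overlap between the groups, by -0.43 (SE 0.07, adjusted p = 0.0012, edgeR), under 1.5-fold. The paper reports Myh6, Tnni3 and Myl2, which are in this list, as maturation genes lower in cKO hearts. The list is therefore no measure of cell content alone. Markers of neurons (Dbh the highest and the 1 called, higher, of 2 tested) summed to 5.25 to 7.47 CPM and 7.60 to 12.01 CPM, with Chat at 0 in all libraries. Skeletal muscle markers summed to at most 2.11 CPM, with Tnnt3 the highest. The part of these markers in the Kir2 result was not tested.

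Kcnj3 showed the lowest log2 fold change of the 10 members. It encodes Kir3.1 (GIRK1), a subunit of IKACh channels (chromosome 2, 55435970 to 55598145, plus strand). Levels were 25.6, 33.6, 28.8, 23.8 and 30.3 CPM in controls and 3.76, 0.822, 1.13 and 1.02 CPM in cKO. The groups were far apart, and cKO 1 stood above the other 3 cKO libraries. The log2 level of Kcnj3 fell by 4.10 with an SE of 0.44 (adjusted p = 0.0004, edgeR), or 17.2-fold, the rank 10 value from the lowest among 15318 genes. Without cKO 1 the value was -4.84 (adjusted p = 7.5e-08) and in the Rps3a3-low set alone it was -3.98 (adjusted p = 0.0446). The Rps3a3-high set gave -4.76.

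The 5′ part of Kcnj3 overlaps Gm26794, a long non-coding RNA gene on the opposite strand (chromosome 2, 55433514 to 55437860), over 1621 of its 5215 exon bases (31.1%). Gm26794 had 8 to 17 counts in control libraries and 0 to 2 in cKO libraries and was also called lower (adjusted p = 0.0016, edgeR). It passed the filter on low counts through its control libraries alone, so this call is no support for that of Kcnj3. The kit marked strand, but the strand setting of the counting is not given in the sources used here, so reads of the shared bases could have been assigned to either gene. Kcnj3 had 758 to 1161 counts in controls, and how many came from the shared bases was not measured.

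Kcnj5 encodes Kir3.4 (GIRK4), the partner of Kir3.1 in IKACh (chromosome 9, 32314707 to 32344350, minus strand). It was abundant, at 102, 117, 127, 124 and 125 CPM in controls and 94.5, 80.9, 94.6 and 72.2 CPM in cKO. All cKO libraries were below all controls, by a small margin at the nearest pair. Its log2 fold change, -0.48 with an SE of 0.09 (adjusted p = 0.0044, edgeR), passed the p threshold and not the 1.5-fold threshold. Among tested genes 8.03% were lower at an adjusted p under 0.05, called ones included. The Rps3a3-low libraries alone gave -0.29 (adjusted p = 0.164) and the Rps3a3-high ones -0.79.

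Kcnj3 therefore changed far more than its partner. The log2 ratio of Kcnj3 to Kcnj5 was -1.98, -1.79, -2.12, -2.36 and -2.02 in controls and -4.48, -5.94, -5.87 and -5.58 in cKO. No library of one group came near the other group, and the difference was -3.42 (exact permutation p = 0.00794, adjusted p over 6 ratios = 0.0238). Within the sets it was -3.55 and -3.42, with an adjusted p of 0.05 when labels were permuted within sets. With 1 control left out the difference was -3.49 to -3.35, at the same lowest possible adjusted p of 0.0571, and without cKO 1 it was -3.75 (adjusted p = 0.0536). Without cKO 1 its p was still the smallest possible, and the adjusted p missed the threshold because fewer ratios shared that p. Per kilobase of exon, Kcnj3 supplied 17.7% of the Kir3 sum in controls and 1.67% in cKO, and the sum was 30.9 ± 2.38 CPM for controls (SD, n = 5) beside 18.6 ± 2.52 CPM for the cKO libraries (SD, n = 4).

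IKACh genes are best known from the atria and the sinus node, so markers of both were measured alongside. Of 8 tested sinus node and conduction markers 3 were called lower and 0 higher, beside 2.72% and 4.01% of all tested genes. The 3 were Hcn4, Cntn2 and Cpne5 (log2 fold changes -3.11, -1.83 and -1.24), named after their values were seen. Their list summed to 123 to 172 CPM in controls and 91.3 to 126.4 CPM in cKO, with Cacna1g the most abundant, 6 of 8 log2 fold changes negative and Isl1 at most 0.0622 CPM. Of 5 tested atrial markers, Myl7, the highest over all 9 libraries, was called higher (log2 1.197, SE 0.217) and 0 were called lower. In controls Dkk3 was the highest, at a mean of 46.7 CPM beside 44.8 CPM of Myl7, and it was higher in cKO by 0.31 log2 units (SE 0.09, adjusted p = 0.0379, edgeR), under 1.5-fold. The other 3 tested, Sln, Nr2f1 and Nr2f2, had negative log2 fold changes that did not pass the test (Sln the lowest at -1.25, adjusted p = 0.262, edgeR), and the list's median was -0.14. The atrial list summed to 110 to 172 CPM and 173 to 216 CPM, with Bmp10 at 0 in all cKO libraries and at most 0.194 CPM in controls. The part of these markers in the Kcnj3 result was not tested.

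**Figure D3:**
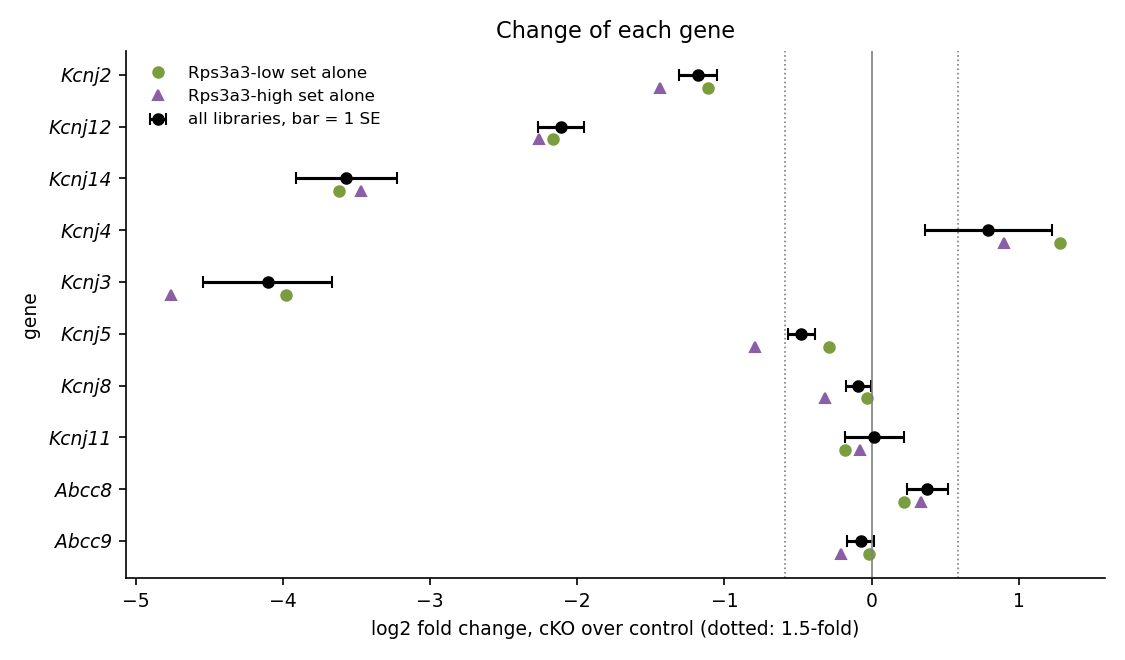
Log2 fold change of each gene, cKO over control; black points use all 9 libraries with bars of 1 SE, green circles the Rps3a3-low set alone and purple triangles the Rps3a3-high set alone, and dotted lines mark 1.5-fold. Kcnj2, Kcnj12, Kcnj14 and Kcnj3 lie beyond the lower line in all 3 fits, Kcnj5 lies beyond it only in the Rps3a3-high set, and Kcnj11 changes sign between the fits.

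Among the 4 KATP genes, 0 were called and the groups overlapped in each. Over all tested genes 6.72% were called and 16.7% showed no overlap, so a count of 0 among 4 genes is near those shares. Kcnj8 encodes Kir6.1, the KATP pore of vascular smooth muscle and pericytes (chromosome 6, 142564837 to 142571614, minus strand). Its levels were 49.6, 50.9, 55.0, 47.0 and 46.4 CPM in controls and 49.0, 47.1, 51.2 and 39.8 CPM in cKO. Only cKO 4 fell outside the control range on the low side, and edgeR gave a log2 fold change of -0.09 with an SE of 0.08 (adjusted p = 0.513).

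Kcnj11 encodes Kir6.2, the KATP pore of ventricular cardiomyocytes (chromosome 7, 46093953 to 46100764, minus strand). It was at 35.9, 32.1, 21.7, 23.7 and 24.8 CPM in controls and at 25.8, 40.2, 23.8 and 22.2 CPM in cKO. Controls 1 and 2, of the Rps3a3-low set, were above the other 3 controls, so the spread within the group followed the library sets. With all libraries the log2 fold change was 0.02 with an SE of 0.20 (adjusted p = 0.963, edgeR). It became -0.18 in the Rps3a3-low libraries and -0.08 in the Rps3a3-high ones, far from the threshold in the fits with a test.

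Abcc8, the gene of SUR1, lies 3758 bases from Kcnj11 on the same strand (chromosome 7, 46104523 to 46180033). It was measured at 90.8, 82.9, 62.6, 66.8 and 66.5 CPM in controls and at 90.4, 124, 88.0 and 82.3 CPM in cKO. The order of the controls resembled that of Kcnj11, with the Rps3a3-low controls on top. The log2 fold change of 0.38 (SE 0.14) did not pass the test (adjusted p = 0.0926, edgeR), and it was 0.22 and 0.33 within the 2 sets.

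Abcc9, the gene of SUR2, is expressed in both cardiomyocytes and mural cells, and lies 16247 bases from Kcnj8 on the same strand (chromosome 6, 142587862 to 142702315). It was the most abundant member, at 512, 581, 517, 582 and 580 CPM in controls and 595, 445, 583 and 484 CPM in cKO. The groups overlapped, with cKO 2 and cKO 4 below every control and cKO 1 and cKO 3 above every control, and edgeR gave -0.07 on the log2 scale with an SE of 0.09 (adjusted p = 0.636).

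Neither the KATP pore sum nor the receptor sum moved beyond its spread. Per kilobase of exon, Kcnj8 and Kcnj11 together gave 27.1 ± 2.05 CPM (SD, n = 5) in controls and 26.0 ± 3.23 CPM (SD, n = 4) in cKO, with Kcnj8 at 72.3% and 71.0% of the sum. Abcc8 and Abcc9 gave 75.4 ± 4.24 CPM (SD, n = 5) and 74.8 ± 7.63 CPM (SD, n = 4), of which Abcc8 was 12.1% and 16.1%. Of the ratios among these genes, Kcnj8 to Kcnj11 differed by -0.10 (exact permutation p = 0.698), Kcnj8 to Abcc9 by -0.01 (exact permutation p = 0.992) and Kcnj11 to Abcc9 by 0.09 (exact permutation p = 0.738) on the log2 scale. Their adjusted p-values over the 6 ratios were 0.886 or more. Mural markers, which accompany Kcnj8 and Abcc9, summed to 1244 to 1390 CPM in controls and 1341 to 1549 CPM in cKO, with 1 of 7 called (Vtn, lower, named after its value was seen) and Rgs5 the most abundant. Of the 7, 5 had a positive log2 fold change, and the list's median was 0.15. Endothelial markers summed to 1556 to 1678 CPM and 1501 to 1636 CPM with 0 of 7 called and Cdh5 the highest, and Tek was lower by -0.28 log2 units (adjusted p = 0.0193, edgeR). Fibroblast markers summed to 4606 to 5686 CPM and 5362 to 6470 CPM with 0 of 6 called and Col3a1 the highest. Of these 6, 5 had a positive log2 fold change, and Col1a1 at 0.52 (adjusted p = 0.0346, edgeR) and Tcf21 at 0.48 (adjusted p = 0.0182, edgeR) were higher in cKO without overlap. Their part in the KATP values was not tested.

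The balance between IK1 and KATP pores was examined through Kcnj2 and Kcnj11. Their log2 ratio was 0.84, 1.47, 1.74, 1.76 and 1.56 in controls and 0.67, -0.45, 0.61 and 0.34 in cKO. Control 1 came close to the cKO range without entering it, and cKO 2 was the lowest. The difference was -1.18 (exact permutation p = 0.0159, adjusted p over 6 ratios = 0.0317), with -0.88 in the Rps3a3-low libraries and -1.34 in the Rps3a3-high ones. Since Kcnj11 stood at 0.02 log2 units, this difference restates the lower Kcnj2 level from the same counts and is no separate result. With labels permuted within the sets the adjusted p was 0.05. With 1 control left out the difference was -1.34 to -1.11, again at the lowest possible adjusted p of 0.0571, and without cKO 1 it was -1.31 (adjusted p = 0.0536). As for Kcnj3/Kcnj5, the p without cKO 1 was the smallest possible and was shared by fewer ratios.

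**Figure D4:**
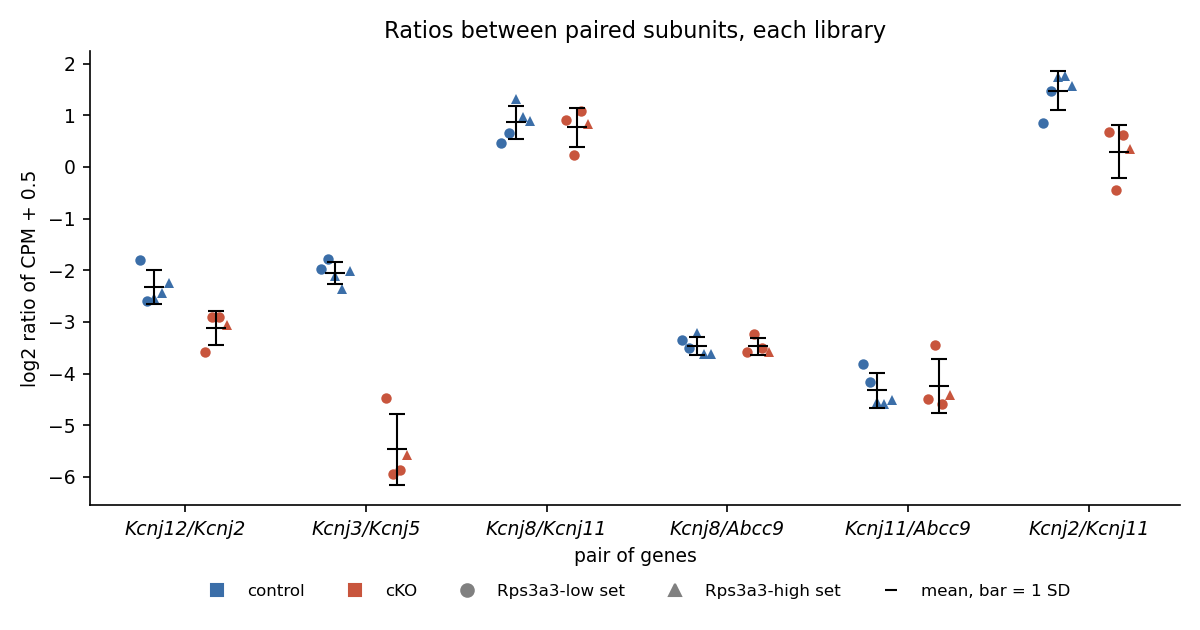
Log2 ratio of the CPM of paired genes, with 0.5 CPM added to each, in every library; blue is control, red cKO, circles the Rps3a3-low and triangles the Rps3a3-high set, and black marks the mean with bars of 1 SD. Kcnj12/Kcnj2, Kcnj3/Kcnj5 and Kcnj2/Kcnj11 are lower in all cKO libraries than in any control, and the 3 ratios among Kcnj8, Kcnj11 and Abcc9 overlap.

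Levels can be ordered between genes only per length. In control ventricles Abcc9 was the highest at 66.2 ± 4.35 CPM per kilobase of exon (SD, n = 5), followed by Kcnj5 at 25.4 ± 2.13, Kcnj8 at 19.5 ± 1.35 and Kcnj2 at 14.1 ± 1.72. Then came Abcc8 at 9.14 ± 1.51, Kcnj11 at 7.52 ± 1.65, Kcnj3 at 5.46 ± 0.739 and Kcnj12 at 5.45 ± 0.801, whose ranges overlapped from each to the next. Kcnj14 at 0.610 ± 0.136 and Kcnj4 at 0.144 ± 0.0621 closed the order. In cKO (SD, n = 4), Kcnj8 at 18.4 ± 1.95 and Kcnj5 at 18.3 ± 2.35 overlapped below Abcc9 at 62.9 ± 8.81. Abcc8 at 11.9 ± 2.33, Kcnj11 at 7.61 ± 2.25 and Kcnj2 at 6.23 ± 1.15 followed with overlapping neighbours. By exon length Kcnj2 stood in rank 4 in controls and rank 6 in cKO. Below Kcnj12 at 1.26 ± 0.258, Kcnj3 at 0.323 ± 0.267 overlapped Kcnj4 at 0.247 ± 0.127, and Kcnj14 at 0.0497 ± 0.0234 was the lowest. With coding length in place of exon length, Kcnj2 ranked above Kcnj8 in controls (59.8 and 39.1 CPM per kilobase of coding sequence), and it took rank 3 in controls and rank 4 in cKO. Abcc8 then stood in rank 7 in controls in place of rank 5, and Kcnj5 stood above Kcnj8 in cKO without overlap, so these orders depend on the length used.

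For 3 members, the genes whose log2 levels over the 9 libraries lay nearest after centring were searched among 11063 tested genes with a mean of at least 5 CPM. Nearest to Kcnj2 were ENSMUSG00000086605, which has no symbol here, at a root mean square (RMS) difference of 0.0818 log2 units, Fbxw7 (0.109), a ubiquitin ligase subunit, and Trim7 (0.135). Their log2 fold changes were -1.25, -1.03 and -1.14. Those near Kcnj12 included Fndc5 (0.139), the precursor of irisin, and Sned1 (0.231), with log2 fold changes of -1.96 and -2.02. Kcnj3 had looser neighbours, 4631405J19Rik (0.490), Klhdc8a (0.584) and Gm15543 (0.624), with -3.37, -4.37 and -3.14. The likeness is a description over 9 libraries that differ by genotype.

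The windows of 250 bases before the RefSeq start (RefSeq, GRCm38) were read for the 7 members with an entry, Kcnj2, Kcnj3, Kcnj4, Kcnj5, Kcnj8, Kcnj12 and Abcc9. The 3 of them that were called lower are printed with Abcc9, whose level overlapped between groups and which held the 1 motif match, in capitals:
Kcnj2 (chr11:111065914-111066163, plus strand): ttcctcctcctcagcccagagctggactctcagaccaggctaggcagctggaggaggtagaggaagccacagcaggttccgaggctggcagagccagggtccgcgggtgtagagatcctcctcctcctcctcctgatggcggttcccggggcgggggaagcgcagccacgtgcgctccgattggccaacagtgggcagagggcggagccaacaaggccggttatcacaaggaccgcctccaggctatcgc
Kcnj12 (chr11:61065554-61065803, plus strand): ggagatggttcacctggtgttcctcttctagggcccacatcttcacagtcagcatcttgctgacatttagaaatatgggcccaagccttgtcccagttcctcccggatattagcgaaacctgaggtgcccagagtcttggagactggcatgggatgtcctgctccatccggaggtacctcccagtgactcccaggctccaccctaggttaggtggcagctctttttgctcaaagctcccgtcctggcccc
Kcnj3 (chr2:55435720-55435969, plus strand): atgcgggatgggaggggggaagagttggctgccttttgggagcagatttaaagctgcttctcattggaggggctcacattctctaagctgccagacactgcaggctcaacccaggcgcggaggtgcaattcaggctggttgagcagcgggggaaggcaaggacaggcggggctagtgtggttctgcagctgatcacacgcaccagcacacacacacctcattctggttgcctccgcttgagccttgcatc
Abcc9 (chr6:142702275-142702524, minus strand): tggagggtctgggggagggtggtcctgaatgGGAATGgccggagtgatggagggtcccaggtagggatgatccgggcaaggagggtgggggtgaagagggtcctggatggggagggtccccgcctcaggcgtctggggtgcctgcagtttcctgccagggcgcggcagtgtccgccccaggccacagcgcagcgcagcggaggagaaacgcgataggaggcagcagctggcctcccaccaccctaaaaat
Both strands were searched for AAGGTCA (bound by estrogen-related receptors), GGAATG (bound by TEAD factors), TATAAA and the MEF2 motif, whose matches can include TATAAA. The match in Abcc9 was GGAATG on the coding strand, 219 to 214 bases before the start. Of 32851 such windows in the mouse table, 4.08% held AAGGTCA, 12.6% GGAATG, 12.4% TATAAA and 2.92% the MEF2 motif. The other 6 windows held none of these motifs. The window of Kcnj12 lies inside the span that GENCODE gives the gene, since its RefSeq start is downstream of the first GENCODE start.

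Chromosomal neighbours that belong to the same gene family were also read. Kcnj16 ends 38195 bases before Kcnj2 and had 0 or 1 count per library, and Kcnj1, 28142 bases from Kcnj5, had 0 or 1 count as well. Kcnj11 with Abcc8 and Kcnj8 with Abcc9 are adjacent pairs of a pore and a receptor. As given above, 0 of these 4 genes was called, beside 6.72% of all tested genes.

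The other genes of these currents were described by lists, to be read beside the 6.72% of all tested genes that were called. Of the remaining inward rectifier subunits, 2 of 7 were tested and 0 were called. Kcnj15 was at 5.43 to 6.31 CPM in controls and 7.29 to 8.06 CPM in cKO (log2 0.36, SE 0.10, adjusted p = 0.0302, edgeR). The untested ones, Kcnj1, Kcnj6, Kcnj9, Kcnj13 and Kcnj16, did not exceed 0.124 CPM in any library. Among 10 two-pore channel genes, which carry background potassium current, 5 were tested and 1 was called. Kcnk3, the gene of TASK-1, was at 124 to 145 CPM in controls and 66.7 to 98.7 CPM in cKO and fell by 0.65 log2 units (SE 0.10, adjusted p = 0.0011, edgeR). Kcnk2, the gene of TREK-1, was higher by 0.53 (SE 0.11, adjusted p = 0.0062, edgeR), which is under 1.5-fold.

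On the G protein route that opens Kir3 channels, 14 of 14 genes were tested. Of these 1 was called lower and 0 higher, near the 6.72% called over all tested genes. Adora1, the adenosine A1 receptor, which couples to this route, was at 15.8 to 18.04 CPM in controls and 8.37 to 14.9 CPM in cKO and fell by 0.62 (SE 0.14, adjusted p = 0.0113, edgeR). Chrm2, the M2 muscarinic receptor of vagal slowing, stood at -0.11 log2 units (SE 0.09, adjusted p = 0.441, edgeR), and the list's median was -0.04.

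None of the 3 lists on channel anchoring and gating had a called gene, beside 6.72% called over all tested genes. For Kir2 anchoring 15 genes were tested, with a median log2 fold change of -0.0007. Dlg1, the scaffold SAP97, stood at -0.22 (SE 0.07, adjusted p = 0.0475, edgeR). Synthesis and breakdown of PIP2, the membrane lipid that keeps Kir channels open, had 10 tested genes and a median of 0.01, with Pi4ka at 0.18 (adjusted p = 0.0391) and Plcg1 at -0.26 (adjusted p = 0.0063). Polyamine metabolism, the source of the molecules that block the pore, had 10 tested genes and a median of -0.03, with Srm, spermidine synthase, at 0.50 (adjusted p = 0.0331) and Oaz2, an antizyme, at -0.24 (adjusted p = 0.0191). Kcnj15, Kcnk2, Chrm2, Dlg1, Pi4ka, Plcg1, Srm and Oaz2, and the markers Myl2, Dkk3, Sln, Nr2f1, Nr2f2, Tek, Col1a1 and Tcf21, were named after their values were seen. Without the fold threshold, 16.3% of all tested genes had an adjusted p under 0.05, 8.25% on the higher side.

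**Figure D5:**
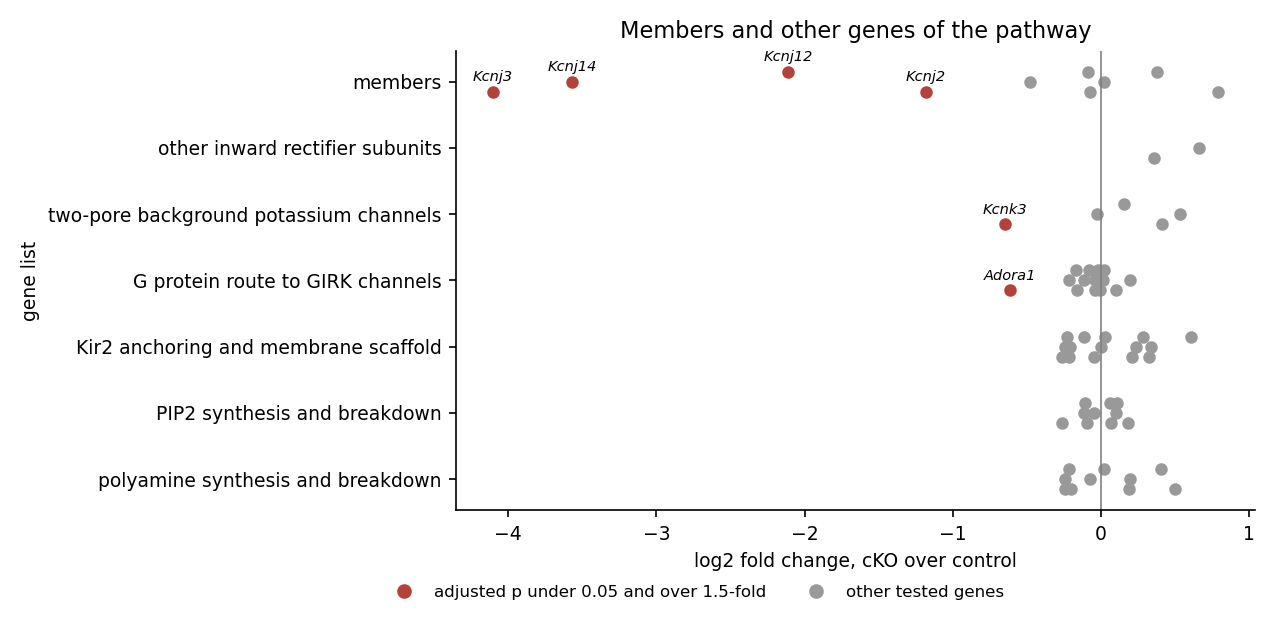
Log2 fold change, cKO over control, of every tested gene in the member list and in the 6 other lists; each point is a gene, red where it was called and grey otherwise, and the vertical line marks 0. Called genes are Kcnj3, Kcnj14, Kcnj12 and Kcnj2 among the members, Kcnk3 among the two-pore channels and Adora1 on the G protein route.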

How the data were processed

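RNA of ventricles, the tissue per the labels, was extracted with TRIzol and made into stranded TruSeq mRNA libraries. Per the study's methods it was sequenced as single-end reads of 75 bases and mapped to mm10. The submitters' processing notes name STAR 2.4.2a and HTSeq 0.6.1. The authors deposited 1 table of raw read counts (genes by libraries), with 0 columns from other samples. Of 38293 Ensembl identifiers, 36429 had a symbol and carried 99.8% of counts. Genes, coordinates and exons are from GENCODE M21 (GRCm38). The methods state fewer controls than the labels, and all 5 labelled controls were used. Whether replicates were separate litters is not given, so p-values measure the spread between these samples.

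In R 4.3.3, genes were kept by filterByExpr (minimum count 10), scaled by TMM and tested on genotype alone with edgeR 4.0.16, glmQLFit with robust estimation and Benjamini-Hochberg adjustment over 15318 genes. The study used DESeq2, which was an alternative here (DESeq2 1.42.0). The script was tested on simulated data. The 6 ratios were tested by two-sided exact permutation on log2(CPM + 0.5), which understates changes of low genes. Alternatives were other scalings, filters, thresholds and lengths, a replicate block, library set terms and leaving out libraries. The members, lists, library sets and naming rule were chosen with earlier results of these data known, and the 6 ratios pair members so chosen. The rule named every member, called genes of the pathway lists (up to 3 each), the most abundant gene of each marker list, Arid1a, Rps3a3 and 3 nearest genes of Kcnj2, Kcnj3 and Kcnj12, of which 1 is not reported here. Read totals of 31011055 to 40073801 set the precision, and Kcnj4 and Kcnj14 rest on few counts.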

Additional observations from a re-analysis of the deposited data

Results flagged for a closer look

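Among 32 groups of values checked for a library far from the others, 2 held one, where chance gives about 1 in 20. Kcnj3 in cKO 1 was at 3.76 CPM, while the other 3 cKO libraries were at 0.822 to 1.13 CPM. Its gap to the nearest library was 0.895 of the group's range, above the 95% critical value of Dixon's test for 4 samples. Without cKO 1 the log2 fold change of Kcnj3 was -4.84, beside -4.10 with it. The log2 ratio of Kcnj11 to Abcc9 in cKO 2 was -3.45, with a gap of 0.853 of the range, and without cKO 2 the difference of this ratio between groups was -0.18 in place of 0.09.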

How the results depend on the processing

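Kcnj2, Kcnj3 and Kcnj12 were called in 17 of 17 alternatives, and Kcnj14 in 16 of the 16 that tested it, since a filter at a mean of 1 CPM removed it and Kcnj4. Their log2 fold changes ranged from -1.29 to -1.10, -4.84 to -3.88, -2.25 to -2.03 and -3.87 to -3.33. Kcnj5 ranged from -0.53 to -0.29 and lost its adjusted p under 0.05 in the Rps3a3-low set alone (0.164). Abcc8 ranged from 0.22 to 0.46 with an adjusted p of 0.038 to 0.542 and was called in 0 fits. Over all tested genes 1030 were called, 620 in the Rps3a3-low set alone, which has fewer samples, 2493 without the fold threshold, and 909 to 1171 with a library left out. The members called stayed at 4 with each library left out.

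Kcnj11 changed sign to -0.028 under the replicate block, -0.14 with the library set as a term and -0.18 in the Rps3a3-low set, and ranged from -0.21 to 0.13 with a library left out, never passing the test. The cause was not tested. Same-numbered samples did not deviate together (correlations 0.0107 to 0.232, 0 of 4 numbers matching best), so no pairing by number was seen. Whether litters pair the samples cannot be told from this. The replicate block called 4 members and 888 genes.

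With labels permuted within library sets, the differences of Kcnj12/Kcnj2 (-0.79), Kcnj3/Kcnj5 (-3.42) and Kcnj2/Kcnj11 (-1.18) had an adjusted p of 0.05, because this permutation allows no smaller p than 0.025. With a library left out they ranged from -0.86 to -0.63 (adjusted p 0.0357 to 0.0714), -3.75 to -3.26 (0.0357 to 0.0571) and -1.34 to -0.93 (0.0357 to 0.0571). Kcnj12/Kcnj2 reached 0.0714 without cKO 1, where its difference was -0.63. Kcnj8/Kcnj11 ranged from -0.20 to 0.084, Kcnj8/Abcc9 from -0.093 to 0.050 and Kcnj11/Abcc9 from -0.18 to 0.21. Coding length raised all 20 levels per kilobase. Counts of 2 to 30 per library limit Kcnj4 and, in cKO, Kcnj14.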
